A study of Mus musculus with 1019 samples.

Results

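Regulatory T cells (Tregs) of visceral adipose tissue (VAT) made up 644 of the 1019 single cells in the series. They were all the cells whose name in the table of unique molecular identifier (UMI) counts began with the label of VAT library 2 or of VAT library 3, which held 330 and 314 cells. The fat was epididymal fat of male B6 mice aged 20 months, and the other 375 cells came from 1 spleen library of male B6 mice of the same age. Cells of both tissues had been sorted as DAPI- TCRb+ CD4+ CD25+ and measured by inDrops, a droplet method that counts the 3' ends of mRNA molecules. Conventional T cells lacking FoxP3 appear in the title of the series too, but every cell analysed here is labelled with the CD25+ sort. The labels name no animal, so each library was treated as 1 sample, cells were not used as replicates and no p-value was computed. Intervals are exact 95% intervals and cover counting error only.

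Tregs are CD4+ T cells that restrain immune responses under the transcription factor FoxP3. The Tregs of visceral fat of lean or older male mice are known to carry receptors and products that lymphoid Tregs largely lack: the IL-33 receptor ST2 (gene Il1rl1), the inhibitory lectin receptor KLRG1, the transcription factors GATA3 and PPARg, the tissue-repair growth factor amphiregulin (Areg) and the anti-inflammatory cytokine interleukin-10 (Il10). IL-33 made by stromal cells of the fat maintains these Tregs through ST2. The description below takes the 5 genes Klrg1, Il1rl1, Gata3, Areg and Il10 as markers and asks how strongly, in how many cells, and with which other genes each was detected inside the fat.

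The VAT libraries were close in depth, at 556099 UMIs in library 2 and 548770 UMIs in library 3, against 573622 UMIs in the spleen library. Cells had a median of 1565 UMIs in VAT library 2, 1611 UMIs in VAT library 3 and 1423 UMIs in the spleen library. VAT libraries 2 and 3 shared 2 cell barcodes, VAT library 3 and the spleen library shared 1, and VAT library 2 and the spleen library shared 0. The labels of the spleen cells disagree among themselves, since the source field names spleen and the tissue field names both tissues, and the cells were placed by their source. T cell identity genes were detected in VAT: Cd3d (a CD3 chain) had 132 UMIs in VAT library 2 and 127 UMIs in VAT library 3, against 283 UMIs in the spleen library. Foxp3 itself had 263, 189 and 221 UMIs in these libraries. Defining markers of other cells were at or near 0 in VAT. Cd8a, Klrd1, Ncr1, Cd79a, Adgre1, C1qa, Adipoq, Plin1, Zbtb16, Dcn and Cdh5 had 0 UMIs in both VAT libraries. The 10 CD8 and NK cell genes summed to 40 UMIs in VAT library 2 and 38 UMIs in VAT library 3, of which Cd8b1 gave 32 and 30, and to 38 UMIs in the spleen library. The 14 myeloid genes summed to 127 and 129 UMIs in VAT libraries 2 and 3, of which Cst3 gave 112 and 118, and to 259 UMIs in the spleen library. The 8 B cell genes summed to 11 and 15 UMIs in the VAT libraries and 87 UMIs in the spleen library. The 8 adipocyte genes gave 3 UMIs in each VAT library and 1 UMI in the spleen library.

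All 5 markers were abundant mRNAs of VAT Tregs, and Klrg1 was the highest. Levels are CPM, the UMIs of a gene divided by all UMIs of its library and scaled to the usual common total. UMIs count 3' ends, so levels were not divided by transcript length. Klrg1 (122270596 to 122282882 on the minus strand of chromosome 6, GRCm38) stood at 3454 CPM (3302 to 3612) in VAT library 2 and 3182 CPM (3034 to 3334) in VAT library 3, against 88.9 CPM in the spleen library. It was the gene of rank 38 in VAT by the smaller of its levels in the 2 libraries. Areg (91139599 to 91148432 on the plus strand of chromosome 5) stood at 1787 CPM (1678 to 1902) in VAT library 2 and 2148 CPM (2028 to 2275) in VAT library 3, against 34.9 CPM in the spleen library. Areg was thus higher in library 3, with a ratio of library 2 to library 3 of 0.83 (0.76 to 0.91). Gata3 (9857078 to 9890034 on the minus strand of chromosome 2) stood at 1403 CPM (1306 to 1505) in VAT library 2 and 1053 CPM (969 to 1143) in VAT library 3, against 230.1 CPM in the spleen library. The ratio of library 2 to library 3 was 1.33 (1.19 to 1.49) for Gata3, the widest gap among the 5 markers. Il1rl1 (40429570 to 40465415 on the plus strand of chromosome 1) stood at 1106 CPM (1020 to 1197) in VAT library 2 and 1071 CPM (987 to 1162) in VAT library 3, against 26.1 CPM in the spleen library. Its interval for the ratio of library 2 to library 3 (0.92 to 1.16) took in 1. Il10 (131019845 to 131024974 on the plus strand of chromosome 1) stood at 935 CPM (856 to 1019) in VAT library 2 and 796 CPM (723 to 875) in VAT library 3, against 13.9 CPM in the spleen library, where it had 8 UMIs. For comparison, Foxp3 stood at 473 CPM (418 to 534), 344 CPM (297 to 397) and 385 CPM in these libraries, so each of the 5 markers exceeded the lineage factor in UMIs inside the fat. Fat was freed into single cells with collagenase and dispase and spleens by mechanical means alone, so tissue and dissociation cannot be told apart in any comparison with spleen.

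**Figure D1:**
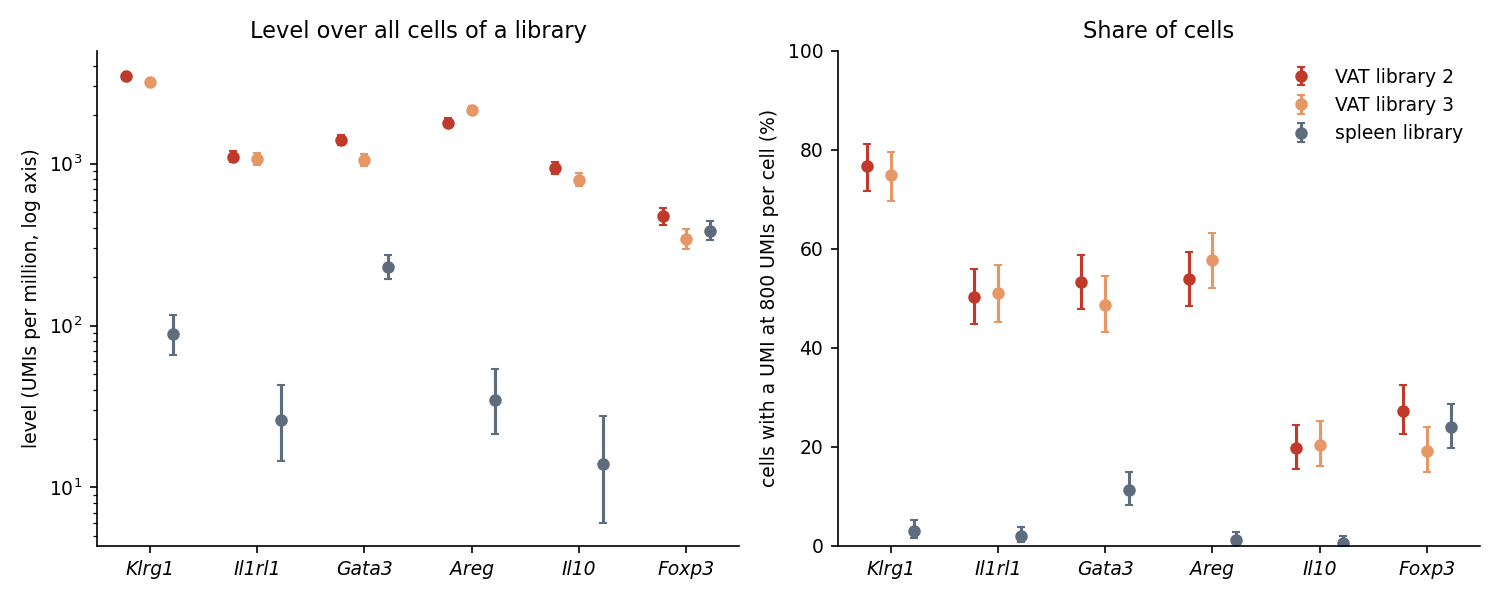
Level of the 5 markers and Foxp3 in CPM (log axis) in VAT library 2, VAT library 3 and the spleen library, with exact 95% Poisson intervals. The 2 VAT points of each marker lie close together, from 796 CPM for Il10 to 3454 CPM for Klrg1, and above the spleen point, which is 230.1 CPM at most, while the 3 Foxp3 points lie between 344 and 473 CPM.

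Klrg1 was also the marker detected in the most VAT Tregs, and Il10 was detected in the fewest. To compare shares at 1 depth, every cell was thinned at random to 800 UMIs, and no cell had fewer. Klrg1 was detected in 76.7% of cells (71.7 to 81.1) in VAT library 2 and 74.8% of cells (69.7 to 79.5) in VAT library 3, against 2.93% in the spleen library. Areg was detected in 53.9% (48.4 to 59.4) and 57.6% (52.0 to 63.2) of cells in VAT libraries 2 and 3, against 1.07% in the spleen library. Gata3 was detected in 53.3% (47.8 to 58.8) and 48.7% (43.1 to 54.4), against 11.2% in the spleen library. Il1rl1 was detected in 50.3% (44.8 to 55.8) and 51.0% (45.3 to 56.6), against 1.87% in the spleen library. The intervals of Areg, Gata3 and Il1rl1 overlapped one another in each VAT library, so these 3 shares gave no order. Il10 stood apart at 19.7% (15.5 to 24.4) and 20.4% (16.1 to 25.3) of cells in VAT libraries 2 and 3, against 0.533% in the spleen library. Foxp3 was detected in 27.3% (22.5 to 32.4) and 19.1% (14.9 to 23.9) of the cells of VAT libraries 2 and 3, and in 24.0% of the spleen cells. Shares grow with depth: without thinning the share with Klrg1 was 83.9% in VAT library 2 and 89.2% in VAT library 3, and that with Areg was 65.2% and 69.4%. It was 71.5% and 67.8% for Gata3, 66.7% and 66.6% for Il1rl1, and 25.5% and 24.2% for Il10. As an example of background, Cd74, an antigen presentation gene that mouse T cells largely lack, was detected in 0.909% of cells of VAT library 2 and 1.91% of cells of VAT library 3 at 800 UMIs. It was detected in 7.2% of spleen cells. Genes listed for other cells ranged widely in VAT libraries 2 and 3, from none detected to Cd8b1 in 4.24% and 4.46% and Cst3 in 12.1% and 14.0% of cells. No single share thus stands for the background.

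Il10 mRNA was concentrated in few cells, and Il1rl1 mRNA much less so. After thinning, if the UMIs of Il10 had fallen independently over the cells, 45.6% of the cells of VAT library 2 and 44.7% of those of VAT library 3 would have held one, against the 19.7% and 20.4% observed. Before thinning, the 10 cells richest in Il10 held 39.6% of its UMIs in library 2 and 37.1% in library 3, and the highest cells held 44 and 23 Il10 UMIs. Il1rl1 would have been expected in 60.0% of the cells of library 2 and 59.5% of those of library 3 and was observed in 50.3% and 51.0%, and its 10 richest cells held 13.7% and 14.3% of its UMIs in libraries 2 and 3. The Fano factor, the variance over cells divided by the mean, is 1 for independent counts. Its median over 1068 genes was 1.34 in VAT library 2 and 1.40 in VAT library 3. Il10 had Fano factors of 4.82 in library 2 and 4.76 in library 3 (rank 3 among these genes by the smaller value), whereas 257 genes of about the same mean had medians of 1.42 and 1.46. Areg had 2.67 and 3.68 and Klrg1 had 2.69 and 2.62 in libraries 2 and 3, while Gata3 had 2.16 and 1.47 and Il1rl1 had 1.57 and 1.58. Klrg1, Areg and Il10 therefore varied more from cell to cell than most genes in both libraries, and Il1rl1 did so only slightly.

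The 10 genes with the largest smaller Fano factor included Hspa1b, Cxcl2 and Il10. Cxcl2, a chemokine that attracts neutrophils, had Fano factors of 5.64 and 4.88 in VAT libraries 2 and 3. Its UMIs would have reached 82.2% and 77.3% of cells if independent, and were found in 44.8% and 40.8%. Hspa1b, which encodes an inducible HSP70 chaperone, was the most concentrated, with Fano factors of 5.73 and 6.57, UMIs in 9.39% and 7.32% of cells, and 58.2% and 72.0% of its UMIs in its 10 richest cells. Its Fano factor in the spleen library was 5.61. The remaining genes among the 10 with the widest spread were Fos, Vim (vimentin), Nr4a1 (an orphan nuclear receptor induced by T cell receptor signals), Rgs2, Crip1, Dusp1 (a MAP kinase phosphatase) and Areg. Their smaller Fano factor lay between 2.67 and 4.21. Penk, the precursor of enkephalin peptides, was rarer still: its 142 UMIs in VAT library 2 and 59 UMIs in VAT library 3 came almost wholly from few cells, since the 10 richest held 97.2% and 100% of them and 1 cell of library 2 held 82.

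**Figure D2:**
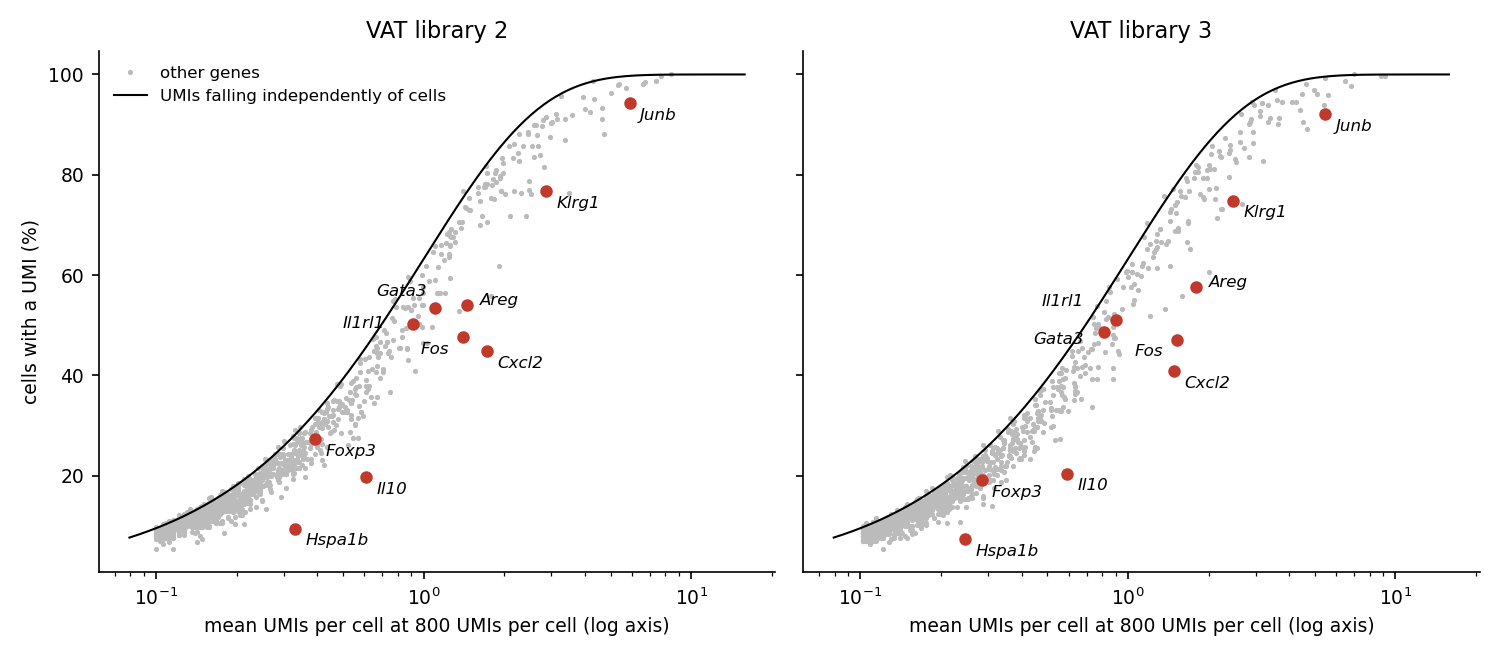
Share of cells with a UMI (percent, at 800 UMIs per cell) against the mean UMIs per cell (log axis) for 1068 genes in VAT library 2 and VAT library 3, with the share expected if UMIs fell independently drawn as a line. Il10 and Cxcl2 lie far below the line in both panels (Il10 at 19.7% in library 2 and 20.4% in library 3, where 45.6% and 44.7% were expected), while Il1rl1 lies nearer to it (50.3% and 51.0%, where 60.0% and 59.5% were expected).

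Nearly all VAT Tregs held at least 1 of the 5 markers, and few held all of them. At 800 UMIs, 95.2% of the cells of VAT library 2 (92.2 to 97.2) and 95.5% of those of VAT library 3 (92.6 to 97.5) held 1 or more, against 16.5% of spleen cells (12.9 to 20.7). At least 3 markers were detected in 52.7% of cells (47.2 to 58.2) in VAT library 2 and 53.8% of cells (48.1 to 59.4) in VAT library 3, against 0 of 375 spleen cells, which allows a share of up to 0.8% taking a floor of 3 cells. The spread of marker numbers was close in the 2 VAT libraries, with 3 markers as the commonest number in each. All 5 were detected in 11 cells of library 2 (3.33%) and 6 cells of library 3 (1.91%), where independent detection would give 2.19% and 2.18%. None of the 5 was detected in 16 cells of library 2 and 14 cells of library 3, where independent detection would give 2.0% and 2.13% of cells against the 4.85% and 4.46% observed. In the cells with a Foxp3 UMI before thinning, 128 in library 2 and 98 in library 3, 97.7% and 99.0% held at least 1 marker.

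**Figure D3:**
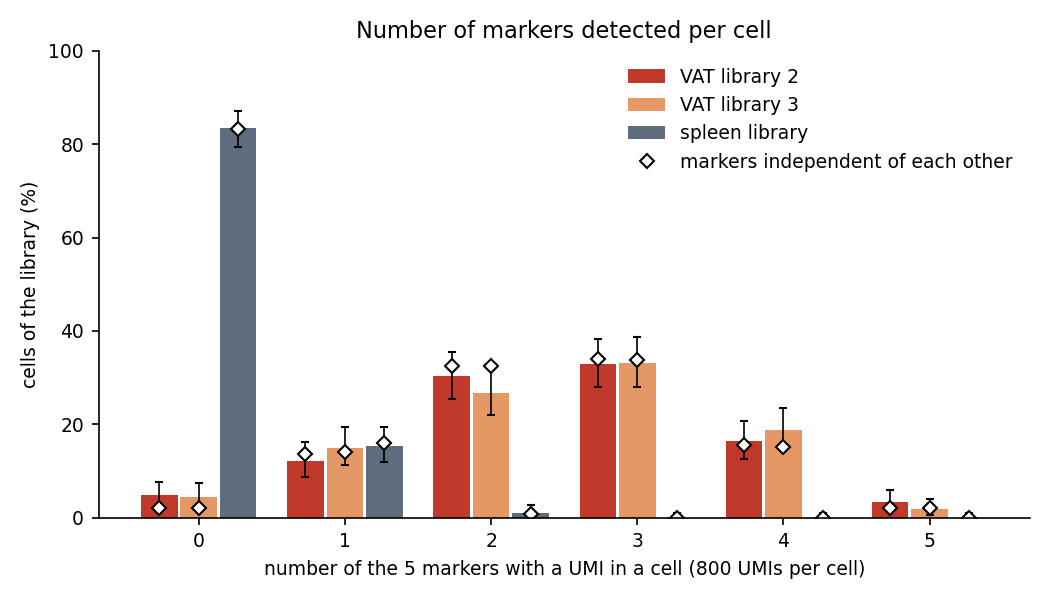
Percent of cells with 0 to 5 of the 5 markers detected at 800 UMIs in VAT library 2 (330 cells), VAT library 3 (314 cells) and the spleen library (375 cells), with exact 95% intervals. The VAT libraries peak at 3 markers and nearly coincide, while 313 of the 375 spleen cells hold none.

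Among one another the markers were close to independent. The 10 pairs had phi coefficients (the correlation of detected with not detected, across cells of 1 library) between -0.07 and 0.15. By the smaller of its values in the 2 libraries, the pair of Klrg1 and Il1rl1 came first, with 0.13 in library 2 and 0.092 in library 3. In VAT library 2, Il1rl1 was detected in 53.8% (47.4 to 60.0) of cells with Klrg1 and 39.0% (28.1 to 50.8) of cells without. In VAT library 3 it was detected in 53.6% (47.0 to 60.1) of cells with Klrg1 and 43.0% (31.9 to 54.7) of cells without. These intervals overlapped in both libraries. Without thinning the gap was 25.5 percentage points in library 2 and 25.2 in library 3, with intervals that did not overlap. Without the 5% of cells with the most UMIs it was 0.702 points in library 2 and -5.25 in library 3. Il10 was detected in 21.3% of Klrg1 cells and 14.3% of the others in library 2, and in 23.4% and 11.4% in library 3, and its share stayed higher in Klrg1 cells in both libraries under each of 6 alternative settings of thinning and cell choice, by 0.413 to 17.2 percentage points. Il1rl1 and Il10 went opposite ways: Il10 was detected in 22.9% of cells with Il1rl1 and 16.5% of cells without in library 2, against 17.5% and 23.4% in library 3. Without thinning that gap of library 3 was 2.02 percentage points the other way. Of the 10 pairs, 7 had the higher share in marker cells in both libraries, but with another random draw of the thinning only 3 did. Besides Klrg1 with Il10, the pair of Areg with Il10 kept its sign in both libraries under each of the 6 settings, and the other 8 pairs did not.

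Co-detection with other genes was weak too, except for partners of Areg and Il10. Phi was computed between each marker and the 817 other genes detected in 10% to 90% of cells in both VAT libraries, and the values of library 2 were set against those of library 3. The correlation between the libraries, across genes that share the cells and are not independent, was 0.313 for Areg and 0.190 for Il10, but 0.056 for Klrg1, 0.014 for Il1rl1 and 0.024 for Gata3. Over all 334153 pairs of the 818 genes it was 0.0256, and 67 pairs had a phi of 0.15 or more in both libraries. For Klrg1, Il1rl1 and Gata3 no gene reached 0.15 in both libraries. The genes that came first for them were Cd52 for Klrg1 (phi 0.12 in each library), Tspan13 for Il1rl1 (0.13 in library 2 and 0.11 in library 3), and Ddx6 for Gata3 (0.14 and 0.11). Il2ra, the CD25 chain on which the cells were sorted, was second for Il1rl1 with 0.098 in library 2 and 0.20 in library 3. With another random draw, another depth or fewer cells, at most 1 of the 5 first partners of each of these 3 markers came among the first 5 again.

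Areg had 6 partners with a phi of 0.15 or more in both libraries: Tnfaip3, Nr4a1, Gadd45b, Fosl2, Bcl2a1a and Ifrd1. Genes known to be induced by T cell activation are among them, such as Tnfaip3, Nr4a1 and Gadd45b. Why these genes were found with Areg was not tested. Nr4a1 was detected in 88.2% (82.5 to 92.5) of the 178 cells with Areg and 62.5% (54.3 to 70.2) of the 152 cells without in VAT library 2. In VAT library 3 it was detected in 81.2% (74.8 to 86.6) of 181 cells with Areg and 64.7% (55.9 to 72.7) of 133 cells without. The intervals did not overlap in either library. Tnfaip3, which encodes the NF-kB inhibitor A20, was detected in 84.8% (78.7 to 89.8) of cells with Areg and 67.8% (59.7 to 75.1) of cells without in library 2, and in 80.7% (74.1 to 86.1) and 58.6% (49.8 to 67.1) in library 3. Gadd45b, a stress and NF-kB response gene, was detected in 83.1% of cells with Areg and 69.1% of cells without in library 2, and in 86.7% and 59.4% in library 3. Fosl2, a partner subunit of AP-1, was detected in 40.4% of cells with Areg and 21.1% of cells without in library 2, and in 31.5% and 17.3% in library 3. Bcl2a1a, a survival gene of the BCL2 family with near-identical copies in mice, was detected in 29.2% of cells with Areg and 15.8% of cells without in library 2, and in 38.7% and 20.3% in library 3. Nfkbiz, an NF-kB cofactor that fell short of this phi in library 3 (0.18 in library 2 and 0.14 in library 3), was detected in 40.4% of cells with Areg and 23.7% of cells without in library 2, and in 36.5% and 23.3% in library 3. Nr4a1, Tnfaip3, Gadd45b, Fosl2, Bcl2a1a and Nfkbiz each kept the higher share in Areg cells in both libraries under each of the 6 settings. These genes, like the partners of Il10 below, were picked by their values in these same cells, and the 6 settings reuse those cells. The gaps, intervals and kept signs are therefore a description and not independent support.

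Txnip and Fos went the other way. Txnip, an inhibitor of glucose uptake whose mRNA is high in resting cells, was detected in 10.7% (6.6 to 16.2) of cells with Areg and 25% (18.3 to 32.7) of cells without in VAT library 2, and in 9.94% (6.0 to 15.3) and 19.5% (13.2 to 27.3) in VAT library 3. Fos, a rapidly induced AP-1 subunit, was detected in 39.3% (32.1 to 46.9) of cells with Areg and 57.2% (49.0 to 65.2) of cells without in library 2, and in 43.1% (35.8 to 50.6) and 52.6% (43.8 to 61.3) in library 3. Both kept the lower share in Areg cells under each of the 6 settings, although the intervals of both overlapped in library 3. Txnip too was picked by its phi in these cells. Fosb, a close relative of Fos, did not take part: it was detected in 62.9% of cells with Areg and 60.5% of cells without in library 2, and in 56.4% and 54.9% in library 3. Fos and Fosb themselves were found together, with Fos in 55.4% of cells with Fosb and 34.9% of cells without in library 2, and in 60.0% and 30.9% in library 3. Fos and Fosl2 were found apart, with phi of -0.19 in library 2 and -0.14 in library 3. The immediate early genes thus did not all go the same way with Areg. Nr4a1 and Fosl2, both picked by their phi with Areg, went with it, and Fos went against it. Klf6 had a weak negative phi with Areg, at -0.072 in library 2 and -0.025 in library 3.

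Of 13 AP-1 and immediate early genes detected in 10% to 90% of cells, phi with Areg was positive in both libraries for 8 and negative in both for 3 (Fos, Ier2 and Klf6). Of 4 genes of the NF-kB response list it was positive in both for 3 (Nfkbiz, Nfkbid and Tnfaip3) and negative for Nfkb1. Over all 817 genes it was positive in both for 262 and negative in both for 206. The NF-kB list, Nfkbia included, had a median of 10 UMIs per 800 in cells with Areg and 7 in cells without in VAT library 2, and 10 and 6 in VAT library 3. The AP-1 list had medians of 27 and 23 UMIs in library 2, and 24 and 19 in library 3. The ranges overlapped almost wholly, from 1 to 35 UMIs of the NF-kB list in cells with Areg and 0 to 24 in cells without in library 2. The sums include genes already named with Areg, Tnfaip3 and Nfkbiz in the NF-kB list and Nr4a1 and Fosl2 in the AP-1 list. They are thus not separate from those pairs. The VAT Treg list, with Areg itself left out, had medians of 7 and 6.5 UMIs in library 2, and 6 and 5 in library 3.

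**Figure D4:**
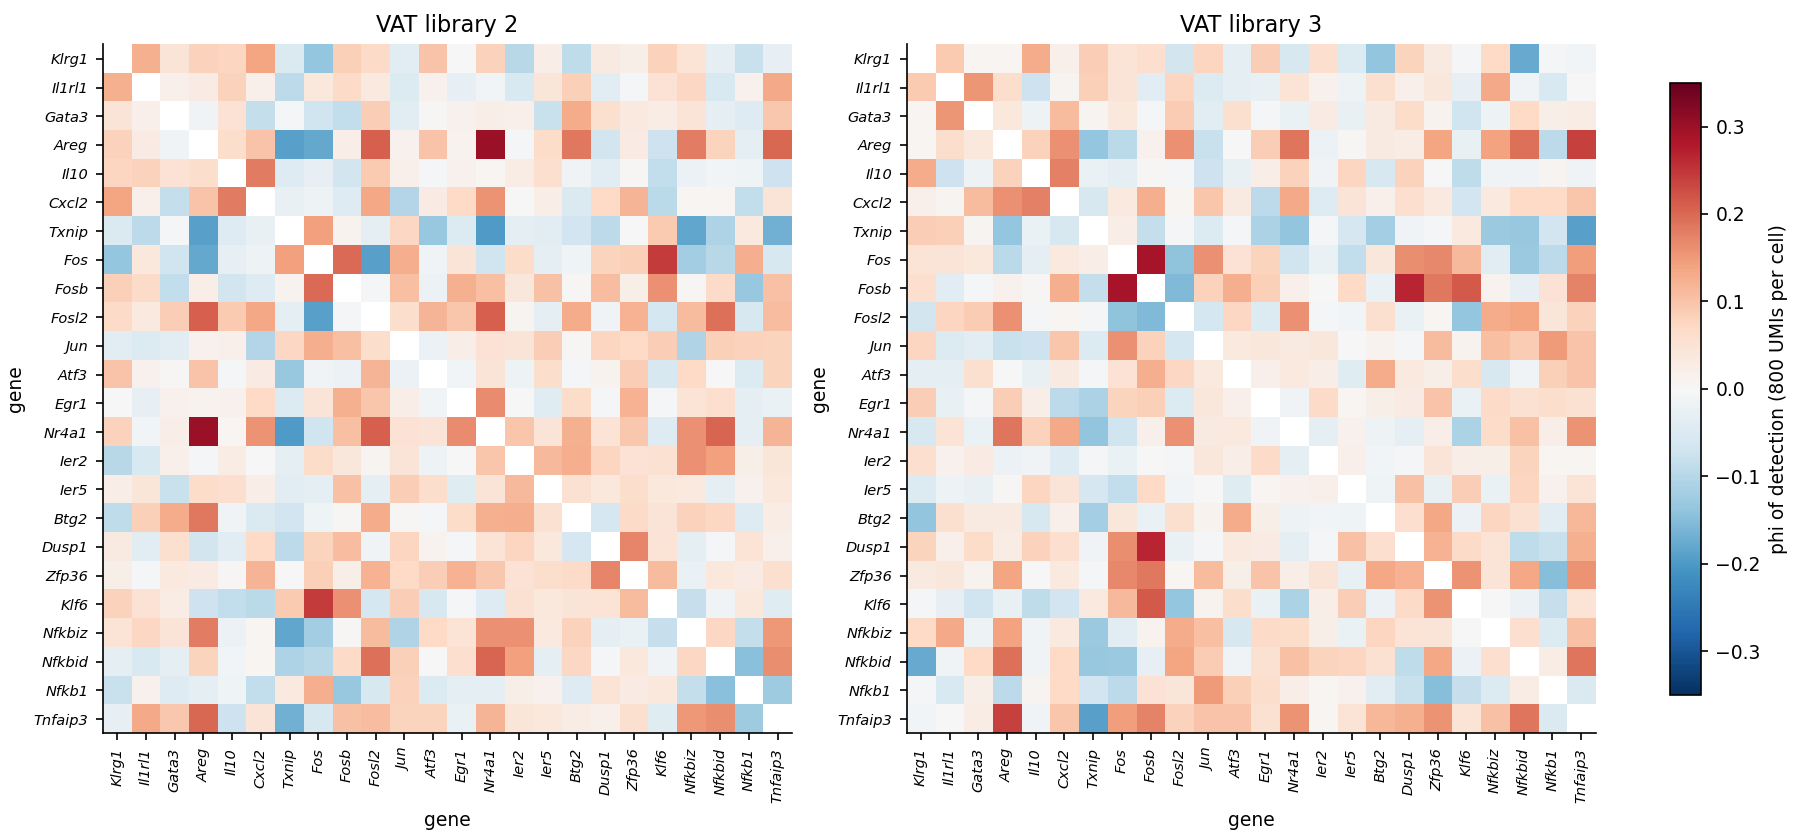
Phi coefficients of detection at 800 UMIs between genes within VAT library 2 and within VAT library 3, the same genes in the same order in both panels, with colour from negative to positive. In both panels Areg is positive with Nr4a1 (0.30 and 0.19), Tnfaip3 (0.20 and 0.24) and Fosl2 (0.21 and 0.16) and negative with Txnip (-0.19 and -0.14), and Il10 is positive with Cxcl2 (0.18 in each library).

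The promoters of Areg and of its partners were read from RefSeq (GRCm38.p6), from 250 bases before the start of transcription to 50 after it, to show what these co-detected genes hold there. Sequence was found for Areg, Tnfaip3, Nr4a1, Gadd45b, Fosl2 and Bcl2a1a among these genes, and for Il1rl1 and Gata3. Both strands were searched for TGANTCA (AP-1), TGACGTCA (the cyclic AMP response element, CRE) and GGGNN followed by TTNCC (NF-kB), which do not overlap in letters with one another in the windows shown. Of 32851 mouse promoters of this length, 7.81% held the AP-1 letters, 1.79% the CRE letters and 4.79% the NF-kB letters. The windows below are those of Areg (chr5:91139349-91139648, plus strand), Tnfaip3 (chr10:19015361-19015660, minus strand) and Nr4a1 (chr15:101266596-101266895, plus strand), written 5' to 3' along the gene, with capitals marking a match.
Areg: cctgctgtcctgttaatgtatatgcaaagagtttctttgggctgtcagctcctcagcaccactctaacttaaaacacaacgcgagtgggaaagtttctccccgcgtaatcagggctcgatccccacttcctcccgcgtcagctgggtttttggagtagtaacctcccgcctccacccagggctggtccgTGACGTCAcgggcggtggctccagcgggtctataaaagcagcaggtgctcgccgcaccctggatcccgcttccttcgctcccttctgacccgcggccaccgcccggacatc
Tnfaip3: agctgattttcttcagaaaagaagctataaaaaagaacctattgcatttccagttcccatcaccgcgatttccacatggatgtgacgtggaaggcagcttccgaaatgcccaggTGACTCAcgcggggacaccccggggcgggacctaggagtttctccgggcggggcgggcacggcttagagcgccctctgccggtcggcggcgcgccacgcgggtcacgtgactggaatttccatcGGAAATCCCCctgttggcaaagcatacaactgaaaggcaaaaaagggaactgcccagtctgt
Nr4a1: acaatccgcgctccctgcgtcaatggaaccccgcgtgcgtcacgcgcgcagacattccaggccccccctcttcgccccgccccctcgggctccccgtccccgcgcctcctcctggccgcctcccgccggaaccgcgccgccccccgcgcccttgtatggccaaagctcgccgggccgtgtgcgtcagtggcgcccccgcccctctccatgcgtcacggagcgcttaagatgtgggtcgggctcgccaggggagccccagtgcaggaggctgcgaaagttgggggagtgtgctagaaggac
Areg held 1 CRE match. Tnfaip3 held 1 AP-1 match, and 1 NF-kB match on the other strand, at this start, and none at its second start. Nr4a1 held none of the 3 in this window, nor did Gadd45b, Fosl2, Gata3 or Il1rl1, and Bcl2a1a held 1 AP-1 match. A match describes letters and is not a shown binding site.

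Il10 cells were distinguished most by Sumo2, which encodes a small protein that is joined to other proteins. Sumo2 lies on chromosome 11 (115523102 to 115536276, minus strand), not near Il10. It was detected in 60.0% (47.1 to 72.0) of the 65 cells with Il10 and 23.4% (18.4 to 29.0) of the 265 cells without in VAT library 2. In VAT library 3 it was detected in 50% (37.2 to 62.8) of 64 cells with Il10 and 16.4% (12 to 21.6) of 250 cells without. The intervals did not overlap in either library, and the gap was 25.6 to 46.4 percentage points over the 6 settings and both libraries. The level of Sumo2 went with the amount of Il10. In cells with no Il10 UMI, 1 to 3 and 4 or more before thinning, Sumo2 stood at 328 CPM (274 to 389), 1079 CPM (846 to 1356) and 1522 CPM (1276 to 1801) in VAT library 2. It stood at 253 CPM (206 to 307), 870 CPM (673 to 1106) and 1656 CPM (1374 to 1979) in VAT library 3. The classes held 246, 41 and 43 cells in library 2 and 238, 41 and 35 cells in library 3. Spleen cells with no Il10 UMI had 287 CPM of Sumo2 (244 to 334), near the VAT cells without Il10, and the 1 spleen cell with 4 or more Il10 UMIs held 4 Sumo2 UMIs.

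Sumo3, a relative of Sumo2, did not show the same steps. It stood at 77.6, 207 and 203 CPM in the 3 Il10 classes of VAT library 2 and at 128, 132 and 82.1 CPM in those of VAT library 3. The next partners of Il10 were the microRNA genes Mir684-1 (phi 0.33 in library 2 and 0.29 in library 3) and Mir684-2 (0.28 and 0.25). These cannot be read as separate genes: of the 67 stretches of 20 bases in each, 66 of Mir684-1 and 60 of Mir684-2 were also in Sumo2 transcripts, so reads of 1 may be counted for another. Il10 transcripts, with 1291 such stretches, shared 0 with Sumo2, Mir684-1 or Mir684-2 on either strand. Why Il10 and Sumo2 were found together was not tested. Cxcl2 was the next partner of Il10 with its own sequence, with phi of 0.18 in each library and a gap of 17.2 to 28.0 percentage points over the settings. Il10 was detected in 21.9% (16.1 to 28.7) of cells with Areg and 17.1% (11.5 to 24.1) of cells without in VAT library 2, and in 23.2% (17.3 to 30.0) and 16.5% (10.7 to 24.0) in VAT library 3. These intervals overlapped, and the gap was 0.111 to 9.79 percentage points over the 6 settings.

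**Figure D5:**
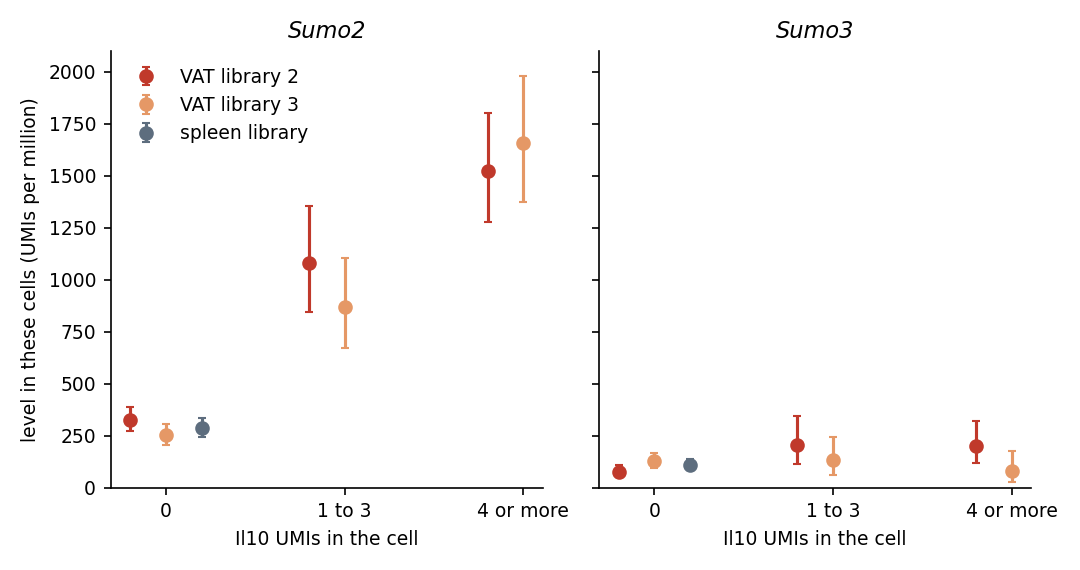
Level of Sumo2 (left) and Sumo3 (right) in CPM in cells with 0, 1 to 3, and 4 or more Il10 UMIs in VAT library 2 and VAT library 3, and in spleen cells with 0 Il10 UMIs, with exact 95% Poisson intervals. The Sumo2 points run upward in each VAT library, with 328, 1079 and 1522 CPM in library 2 and 253, 870 and 1656 CPM in library 3.

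Across the whole profile, the most abundant mRNAs of VAT Tregs outside ribosomal protein genes were housekeeping genes mixed with inducible ones. Tpt1 led with 10678 CPM in VAT library 2 and 11263 CPM in VAT library 3, against 13129 CPM in the spleen library, and H2-D1, Actb, Tmsb4x and B2m followed. Junb, an AP-1 subunit, was sixth with 7234 and 6682 CPM in VAT libraries 2 and 3, against 446 CPM in the spleen library. S100a4, a calcium-binding protein of migrating cells, was eighth with 6504 and 7171 CPM, against 173 CPM in the spleen library. Vim, S100a6, Nfkbia (the inhibitor IkBa, itself an NF-kB target) and Jund were also among the first 15. The AP-1 and immediate early list of 23 genes made up 3.20% and 2.95% of all UMIs in VAT libraries 2 and 3, against 0.20% in the spleen library. Every VAT cell had some: the list took 0.05% to 8.49% of a cell's UMIs in library 2, and 0.16% to 8.36% in library 3. Of its members with 50 or more UMIs over the 3 libraries, 18 of 19 stood 2-fold or more above the spleen level in each VAT library, beside 10.3% of the 4635 genes of that size. Of 11 heat shock genes of that size, 0 stood 2-fold or more above or below spleen in both VAT libraries, beside 10.3% above and 4.4% below among all 4635 genes. A list this small would hold few such genes anyway, so this count does not set it off. Within cells, the sum of the AP-1 list went with that of the NF-kB list at a Spearman's rho of 0.32 in library 2 and 0.37 in library 3, and against the ribosomal protein list at -0.41 and -0.34, where the fixed total per cell itself sets parts against each other.

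Of 17 listed receptors for chemoattractants, 16 had a UMI in VAT. Ccr2, the receptor of the monocyte chemokine CCL2, was detected in 44.5% of cells of VAT library 2 and 41.7% of VAT library 3, against 0.8% in the spleen library. Ltb4r1, the leukotriene B4 receptor, was detected in 37.3% and 38.5% of the cells of VAT libraries 2 and 3, against 0 of 375 spleen cells, which allows a share of up to 0.8% taking a floor of 3 cells. Cxcr6 was detected in 19.4% of cells in each VAT library, Cxcr4 in 18.2% and 15.3%, and Ccr1 in 14.5% and 14.0%. Of 11 list members with 50 or more UMIs, 6 stood 2-fold or more above spleen in each VAT library and 2 stood 2-fold or more below it, beside 10.3% above and 4.4% below among all 4635 genes. Cxcr5, the follicle homing receptor, had 0 UMIs in both VAT libraries and 51 in the spleen library.

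Among secreted factors Cxcl2, Areg and Il10 gave most of the UMIs. Cxcl2 stood at 2375 and 1795 CPM in VAT libraries 2 and 3, against 3.49 CPM in the spleen library, from 2 UMIs. Ltb (lymphotoxin beta) was detected in 17.6% and 15.9% of VAT cells, against 48.8% of spleen cells. Il5 had 6 and 8 UMIs, Il13 had 3 and 0, and Il4 and Il17a had 0 in VAT libraries 2 and 3, so the effector cytokines of type 2 and type 17 helper cells were at or near the floor of 3 UMIs (5.39 CPM in library 2 and 5.47 CPM in library 3). The list of other T helper fates as a whole made up 0.0049% and 0.0058% of UMIs in the VAT libraries, against 0.014% in the spleen library.

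Of the Treg core genes, Il2ra led with 1104 CPM in VAT library 2 and 1011 CPM in VAT library 3, against 453 CPM in the spleen library. Ikzf2 (the factor Helios) stood at 887 and 703 CPM, against 615 CPM, and Ctla4, an inhibitory receptor, at 631 and 561 CPM, against 131 CPM. The list as a whole made up 0.59% and 0.54% of UMIs in VAT libraries 2 and 3, against 0.53% in the spleen library. Of its 15 genes with 50 or more UMIs over the 3 libraries, 2 stood 2-fold or more above spleen in both VAT libraries. Another 4 stood 2-fold or more below it, beside 10.3% above and 4.4% below among all 4635 genes. Their median log2 ratio to spleen was -0.12 in VAT library 2 and -0.16 in VAT library 3. Cells with Foxp3 detected held Areg in 65.6% and the others in 49.6% in VAT library 2, and in 63.3% and 56.3% in VAT library 3. Il1rl1 differed in sign between the libraries, with 44.4% of Foxp3 cells and 52.5% of the others in library 2, against 58.3% and 49.2% in library 3.

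Lipid handling genes were sparse. Dgat1, which makes triglycerides, was detected in 20.3% and 19.7% of the cells of VAT libraries 2 and 3, against 1.6% in the spleen library, and Plin2, a lipid droplet coat protein, in 12.1% and 9.24%, against 1.6%. Pparg, the nuclear receptor known for VAT Tregs, was detected in 4.85% and 6.37% of cells, at 88.1 and 83.8 CPM in VAT libraries 2 and 3 against 3.49 CPM in the spleen library. Cd36, a fatty acid transporter, and Scd1 had 0 UMIs in both VAT libraries. The resting and lymphoid homing list made up 0.10% and 0.086% of UMIs in the VAT libraries, against 0.23% in the spleen library. Tcf7 and Id3 had 0 UMIs in VAT, while Il7r, the IL-7 receptor, was detected in 21.8% and 18.8% of VAT cells, against 9.07% of spleen cells. Cell cycle genes gave 0.057% and 0.060% of UMIs in VAT and 0.066% in the spleen library, and a median VAT cell held none.

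The VAT libraries differed from each other in 201 of the 4635 genes by at least 2-fold (4.34%), 147 higher in library 2 and 54 higher in library 3. Among list members of that size, 0 of 13 VAT Treg genes, 0 of 19 AP-1 genes and 0 of 11 NF-kB genes were apart. Of 18 S100, annexin and cytoskeleton genes, 0 were. With 4.34% of all genes apart, lists this small would hold few such genes anyway, so these counts do not set them off. Of the activation and checkpoint genes, 3 of 10 were apart, and of the secreted factors 2 of 10. Lipid handling genes and resting and lymphoid homing genes gave 1 of 10 each. Chemoattractant receptors gave 1 of 11 and Treg core genes 1 of 15. The remaining gene lists gave 0, including 0 of 75 ribosomal protein genes. Among genes with 50 or more UMIs in the VAT libraries alone, Tnfrsf9 (the receptor 4-1BB), also a Treg core gene, was the one list member among the 8 furthest towards library 2, with 96 UMIs in VAT library 2 and 30 UMIs in VAT library 3, a ratio of 3.16 (2.08 to 4.93). It was detected in 6.36% and 4.14% of the cells of these libraries, and the 10 richest cells of library 2 held 67.7% of its UMIs. The furthest of the 8 was Iqgap2, a scaffold protein, with 47 UMIs in library 2 and 12 in library 3 (log2 ratio 1.91), and the most abundant was Prrc2a, with 148 and 48 UMIs (log2 ratio 1.60). Furthest towards library 3 was Mapkap1, a subunit of the kinase complex mTORC2, with 22 UMIs in library 2 and 58 in library 3 (log2 ratio -1.40). With 1 library each, such gaps carry no replicate check.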

How the data were processed

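Per the labels' protocols, VAT was digested with collagenase and dispase, spleens were dissociated mechanically, and sorted cells were encapsulated by inDrops. The submitters' processing notes name TopHat2, SAMtools and the genome build mm10, without versions. Not given in the sources used here are the gene annotation, the cell filter and any doublet removal. UMI counts per gene and cell, not normalized, are what the authors deposited, in a table of 23725 rows, of which 13281 had a UMI and 0 were mitochondrial. The cells had 887 to 3725 UMIs in VAT library 2, 916 to 4973 in VAT library 3 and 819 to 4244 in the spleen library. With a floor of 3 counts, the limit for a gene at 0 is 5.39 CPM in VAT library 2, 5.47 CPM in VAT library 3 and 5.23 CPM in the spleen library.

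From these counts, UMIs were summed per library and divided by its total (CPM, exact Poisson intervals). Shares of cells were taken after thinning each cell without replacement to 800 UMIs (seed 1), with exact Clopper-Pearson intervals. Phi was computed for genes detected in 10% to 90% of cells of both VAT libraries, and the Fano factor for genes with a mean of at least 0.1 UMIs. A gene passed the size rule at 2-fold with 50 or more UMIs over the 3 libraries, with 0.5 added to counts. UMIs share PCR and cells share their library, so intervals cover counting error only. No doublet caller was run. The members and the 17 gene lists were chosen with earlier results of these data known.

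Genes were named by a rule: the 5 markers, the 15 most abundant genes outside ribosomal protein genes by name (Rplp1, a ribosomal stalk protein, escaped the name pattern), the first 5 and last 3 phi partners of each marker, the 10 largest Fano factors, the 8 genes furthest apart each way between the VAT libraries, up to 6 members of each list by UMIs, and members at 0. Fosb, Nfkbiz, Ifrd1, Penk, Tnfrsf9, Sumo3 and others outside it were named after their values were seen. Gene coordinates are from GENCODE M21, which held 22822 of the symbols, and promoters are from RefSeq tables of GRCm38.p6. Python 3.11.15 with numpy 2.4.6, scipy 1.17.1, pandas 2.3.3 and matplotlib 3.10.9 was used, with edgeR 4.0.16 for TMM factors alone. The thinning, detection and pair statistics were tested on simulated data.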

Additional observations from a re-analysis of the deposited data

How the results depend on the processing

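No paired analysis was possible because no animal is named in the labels and the groups share fewer than 2 replicate numbers. The share of cells with at least 3 of the 5 markers depended on depth: it was 43.9% in VAT library 2 and 40.5% in VAT library 3 after thinning to 600 UMIs, and 74.2% and 73.9% with no thinning. The share with at least 1 marker was 97.9% and 98.1% with no thinning, and 97.7% and 99.0% in cells with a Foxp3 UMI alone. The number of marker pairs with the higher share in marker cells in both libraries, 7 as reported, was 3 with another thinning seed, 4 after thinning to 600 UMIs and 3 without the 5% of cells with the most UMIs. Of genes at least 2-fold higher in both VAT libraries, at least 2-fold lower, and apart between the VAT libraries, there were 478, 204 and 201 as reported, 783, 479 and 847 with a minimum of 20 UMIs, and 1469, 1918 and 3842 with no filter. With totals without ribosomal protein genes, 323 genes were lower. Leaving out 1 VAT library gave 593 to 627 genes higher and 343 to 409 genes lower. TMM factors gave 514, 179 and 191 genes and median-of-ratios factors 500, 189 and 193. The first partners of Il10 came among the first 5 again in 4 of 5 cases under every alternative, those of Areg in 2 to 3. Alternatives without cells of shared barcodes, some of those for partners and for spread over cells, and the count of genes against spleen without the 5% of cells with the most UMIs were chosen after seeing the data. The cause of these changes was not tested, except that fewer or more genes are counted by construction under another minimum. Removing cells also changes the random draw of the thinning.

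Depth limits the shares: with 800 UMIs per cell a gene at the level of Il1rl1 is often missed, so the absence of a UMI in a cell does not show absence of the mRNA.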

Other observations

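Of all pairs among 818 genes, 15 had a phi of 0.3 or more in both VAT libraries, and 6 had a phi of -0.15 or less in both. These counts include pairs with near-identical sequence, such as Sumo2 with Mir684-1, whose reads may be counted for one another. Within the 17 AP-1 and NF-kB list genes detected in 10% to 90% of cells, 68 of 136 pairs (50%) had a positive phi in both libraries, against 25% of all pairs, and the correlation of phi between libraries was 0.428 across these pairs. Fosb was detected together with Lmna, which encodes lamin A. Lmna was found in 56.4% of cells with Fosb and 38.9% of cells without in VAT library 2, and in 61.1% and 40.3% in VAT library 3. The sign was kept under each of the 6 settings. This pair was picked by its phi in these same cells, which the settings reuse, so its gap and kept sign are a description and not independent support. Lmna stood at 1363 and 1485 CPM in VAT libraries 2 and 3, against 1.74 CPM in the spleen library, from 1 UMI. Eno1, a glycolysis gene with near-identical copies, had 0 UMIs in VAT library 2 and 1 UMI in VAT library 3, so its row cannot be read as its level.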
